A study of Mus musculus with 6 samples.

Results

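Glucocorticoid-induced stress genes are genes that corticosterone, the main glucocorticoid of the mouse, is known to switch on. The set examined here holds 9 genes taken by name, namely Fkbp5, Tsc22d3, Sgk1, Zbtb16, Dusp1, Klf9, Mt1, Mt2 and Ddit4, out of 20659 genes with a symbol on the array. Each was read by 1 probe, so that 9 of 39429 probes carried the set, and all 9 probes were well above background on all 6 arrays and unsaturated. The genes did not move as a block between the MOD group and the SA-H group. Ddit4 was higher in the SA-H group by the unadjusted p limit of 0.05, which it missed in 7 of 16 alternative settings. By that limit 10.8% of all tested features were higher. Sgk1 and Dusp1 lay lower on every SA-H array than on any MOD array without passing the test, and the remaining genes overlapped between the groups. Of all tested features, 32.7% did not overlap either, 20.7% lower and 11.9% higher, so these counts were near the background.

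The arrays were made from spleens of male ICR mice, an outbred strain, aged 8 weeks and weighing 18 to 22 g at purchase. Both groups received cyclophosphamide (Cy), an alkylating drug that depletes lymphocytes, at 40 mg/kg by intraperitoneal injection over 5 days, so that no array here shows a spleen without Cy. The MOD group (arrays 1, 2 and 3) then received water by gavage, over 4 weeks by the labels. The labels give the SA-H group (arrays 4, 5 and 6) schizandrol A (SA), a lignan of Schisandra fruit, at 1000 mg/kg per day over 4 weeks. The paper, which took the arrays from earlier work, states another dose and a shorter course of gavage for its SA-H group. This difference is not explained. By the sample labels the MOD samples date from day 5 and the SA-H samples from day 28. If so, treatment and time of sampling cannot be told apart. The label of day 5 conflicts with the 4 weeks of gavage given for the MOD group, and the sources used here do not resolve this. According to the labels, the dose group taken to the arrays was the one judged best. No source states that each array stands for its own mouse, so the p-values reflect only how far these samples spread, and that spread may be technical.

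Corticosterone enters the cell and binds the glucocorticoid receptor, which is held ready by heat shock protein chaperones, and the receptor then moves to the nucleus and binds palindromic DNA elements near its target genes. In lymphoid tissue the products of these targets dampen inflammatory signalling, slow growth and favour the death of immature lymphocytes, and Fkbp5 feeds back on the receptor itself. Several members also answer other stimuli: the metallothionein genes answer zinc and interleukin 6, Dusp1 answers growth factors and stress kinases, and Ddit4 answers low oxygen and DNA damage.

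The promoter sequences that bear on these inputs are shown first, because 1 member alone held the full palindrome and because the metallothionein windows carried the metal elements. Windows of 300 bases, from 250 before to 50 after an annotated start, were taken from RefSeq on the build GRCm38.p6, and 8 of the 9 genes had at least 1 of them (15 windows in all). Zbtb16 had no entry, and Sgk1 had more windows than any other member and so more chances of a match. The windows were searched on both strands for the glucocorticoid palindrome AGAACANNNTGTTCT, for its right arm TGTTCT alone (which overlaps the palindrome), and for the metal response element cores TGCACNC and TGCGCNC. The palindrome was present in 3 of 32851 promoter windows of the mouse genome (0.00913%), and 1 of these was a window of Sgk1, at chr10:21993640-21993939 on the plus strand, with its first base 189 bases before the start. The arm was present in 19.0% of all windows, the core TGCACNC in 12.6% and the core TGCGCNC in 15.4%. In the 4 windows below, capitals mark the matches. These are the palindrome and 1 separate arm in Sgk1, and both metal cores in Mt1 (chr8:94178839-94179138, plus strand) and Mt2 (chr8:94172368-94172667, plus strand). Ddit4 (chr10:59951721-59952020, minus strand), the member with the clearest difference between the groups, holds a single metal core.
Sgk1: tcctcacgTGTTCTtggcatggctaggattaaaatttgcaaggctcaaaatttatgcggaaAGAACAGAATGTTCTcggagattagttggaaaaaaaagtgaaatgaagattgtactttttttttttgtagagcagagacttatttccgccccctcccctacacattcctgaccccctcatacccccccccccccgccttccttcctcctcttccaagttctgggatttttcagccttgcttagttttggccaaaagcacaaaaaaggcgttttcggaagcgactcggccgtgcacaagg
Mt1: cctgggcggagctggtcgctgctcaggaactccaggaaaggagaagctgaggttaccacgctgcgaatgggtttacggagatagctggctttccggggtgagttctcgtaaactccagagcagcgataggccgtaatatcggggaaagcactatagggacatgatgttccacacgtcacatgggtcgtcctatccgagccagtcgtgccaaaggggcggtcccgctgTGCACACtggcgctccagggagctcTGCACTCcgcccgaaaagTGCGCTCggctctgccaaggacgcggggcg
Mt2: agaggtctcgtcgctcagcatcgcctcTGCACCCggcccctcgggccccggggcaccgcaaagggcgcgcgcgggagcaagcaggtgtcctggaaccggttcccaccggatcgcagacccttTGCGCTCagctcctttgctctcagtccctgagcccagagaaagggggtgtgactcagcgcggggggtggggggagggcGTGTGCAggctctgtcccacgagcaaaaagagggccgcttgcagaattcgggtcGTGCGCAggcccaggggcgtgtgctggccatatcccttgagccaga
Ddit4: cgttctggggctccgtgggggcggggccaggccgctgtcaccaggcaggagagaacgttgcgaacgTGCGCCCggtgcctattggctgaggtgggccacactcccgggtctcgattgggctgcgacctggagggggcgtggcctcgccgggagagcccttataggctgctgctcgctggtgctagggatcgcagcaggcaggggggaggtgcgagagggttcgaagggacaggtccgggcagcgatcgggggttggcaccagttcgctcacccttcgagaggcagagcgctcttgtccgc
Among the other windows of the set, the arm was found in 2 further windows of Sgk1 and in 1 window of Tsc22d3, and the core TGCGCNC in a window of Dusp1 and in another window of Sgk1. The windows of Fkbp5 and Klf9 held none of the 4 motifs. A match describes letters and is no proof of binding, and the absence of a match concerns this window only.

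Levels are given as the log2 of the processed signal minus the log2 of the 75th percentile of the same array, so that a level compares arrays within a gene and not genes with each other. Every difference is SA-H minus MOD. A gene was called changed at a fold of at least 2 with an unadjusted p under 0.05 in limma. The 75th percentile signal ranged from 599 to 840 in the MOD group and was 220, 868 and 433 in SA-H arrays 4 to 6, while between 43.1% and 73.9% of the 43020 spots rose well above background. SA-H array 4, with the lowest signal, stood apart, with a correlation of 0.838 to 0.897 with the MOD arrays against 0.909 to 0.960 for the other 2 SA-H arrays. T cell markers (10 of 10 tested, all well above background on 6 arrays) and B cell markers (8 of 10 tested) were present, as the spleen label implies. The extraction protocol in the labels also speaks of liver. Of 12 liver markers, 7 were not tested, among them Alb, Apoa1 and Ttr. A gene on the array was not tested if its probes were too dim or lacked a value on an array. These reasons were not told apart. The other 4 (Tat, Serpina1a, Apoa2 and Trf) were well above background on all 6 arrays and Cyp2e1 on 5. Their summed level was 21.4 to 26.6 in the MOD group and 22.9 to 25.7 in the SA-H group.

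Of the 9 stress genes, 0 were called changed at both limits, where 12.8% of all 14474 tested genes and unnamed targets were. At the unadjusted p alone, 1 of 9 was higher and 0 were lower, where 10.8% of all features were higher and 12.5% were lower. No feature of the whole table passed an adjusted p of 0.05 in limma (0 of 14474, with 3377 at an unadjusted p under 0.05, and 0 by the analysis of variance that the methods name). The groups did not overlap for 3 of 9 stress genes, 1 higher and 2 lower, where 32.7% of all features did not (11.9% higher and 20.7% lower). By these counts the set as a whole stood near the background of the table. The median difference of the set was 0.22 on the log2 scale, against -0.04 over all features, and the signs were split into 5 positive and 4 negative. The split was 1 to 8 when arrays were scaled by their median, which lowers all differences, and 4 to 5 with quantile normalization.

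**Figure D1:**
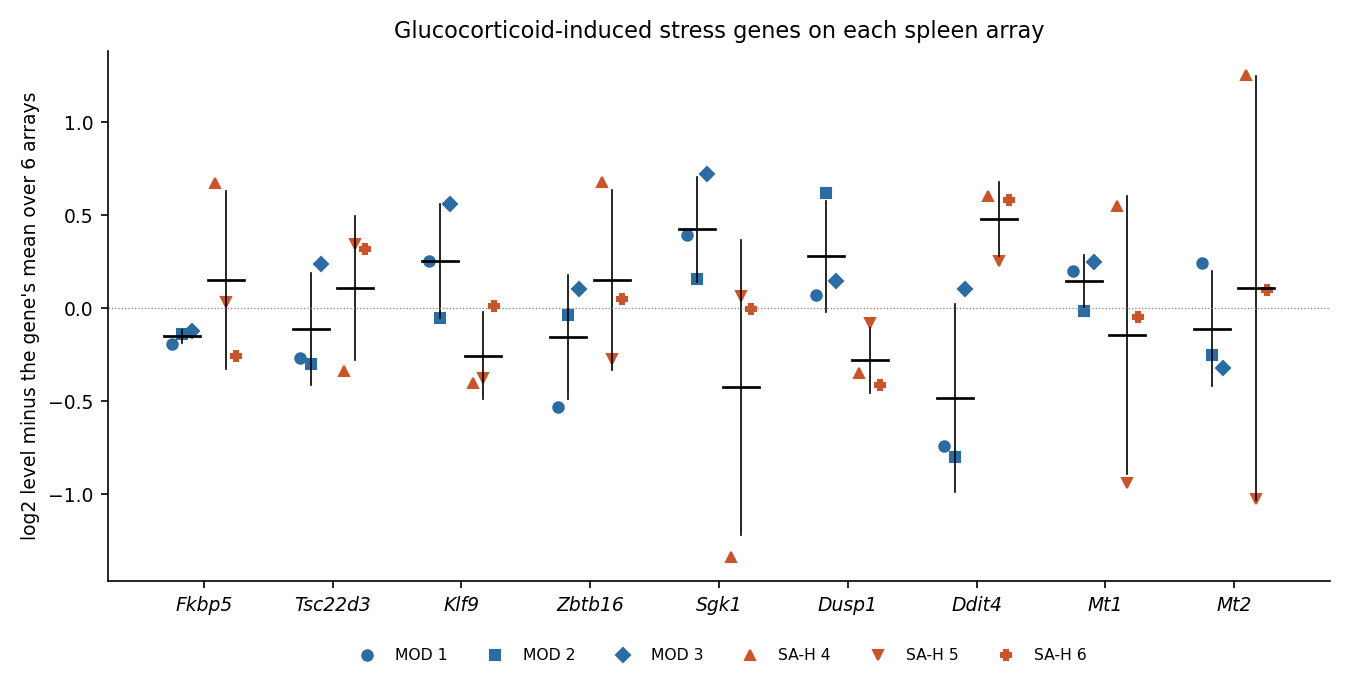
Log2 level of each stress gene on each array, minus the mean of that gene over the 6 arrays; blue symbols are MOD arrays 1 to 3, orange symbols are SA-H arrays 4 to 6, and the bars give the group mean with its SD (n = 3 arrays). The groups are apart for Sgk1, Dusp1 and Ddit4, and SA-H array 4 lies at the edge of the range for 8 of the 9 genes, the highest for Fkbp5, Zbtb16, Mt1, Mt2 and Ddit4 and the lowest for Tsc22d3, Sgk1 and Klf9.

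Ddit4, also called Redd1, whose product restrains mTOR complex 1 and with it cell growth, was the clearest of the set. Its level was 3.60, 3.53 and 4.44 for MOD arrays 1 to 3 against 4.94, 4.59 and 4.92 for SA-H arrays 4 to 6. All SA-H arrays were above all MOD arrays, although MOD array 3 lay close to SA-H array 5. The mean was 4.82 ± 0.20 (SD, n = 3) in the SA-H group, compared with 3.86 ± 0.51 (SD, n = 3) in the MOD group. The difference was 0.96 on the log2 scale, or 1.95-fold (standard error 0.31, 95% confidence interval 0.23 to 1.69; limma, adjusted p = 0.145). It passed the unadjusted p limit and lay just under the fold limit, and 19.1% of all features had a larger difference. The difference was 0.90 within the first scan day (SA-H array 6 against MOD arrays 1 and 3) and 1.40 within the second (SA-H array 4 against MOD array 2). Its sign held in all 16 alternative settings, but the unadjusted limit was missed in 7 of them. These were scaling by the median (0.64), quantile normalization (0.76), normexp background correction (0.70), the deposited value table (0.37), and the fits without MOD array 1, MOD array 2 or SA-H array 6. The 6 differences with an array left out ran from 0.80 to 1.25.

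Other genes around Ddit4 showed no common direction. Of 20 genes of the mTOR complex 1 pathway and of the other stresses that induce Ddit4, 15 were tested, 1 was higher, 0 were lower, and the median difference was -0.16. The gene that passed was Bnip3, a mitophagy receptor that low oxygen induces, with levels of 2.29, 3.33 and 2.17 in the MOD group and 4.84, 5.04 and 3.49 in the SA-H group. Its difference of 1.86 (standard error 0.50; limma, adjusted p = 0.108) met the call, and all SA-H arrays were above all MOD arrays. The mean of its kept probes differed by 0.81 and the deposited value table by 0.42, both under the fold limit, and the latter also missed the unadjusted p. The differences of the mTOR activator Rheb (-0.62), the mTOR complex subunit Mlst8 (-0.51) and the stress sensor Sesn3 (-0.78, or -0.41 without SA-H array 4) did not pass.

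Sgk1, a kinase that glucocorticoids and mineralocorticoids both induce and that regulates ion transport and T cell differentiation, lay lower on the SA-H arrays. The levels were 0.76, 0.52 and 1.08 across the MOD group against -0.98, 0.43 and 0.36 across the SA-H group. The groups did not overlap, but SA-H arrays 5 and 6 lay just under MOD array 2, and SA-H array 4 lay far below all others. The means were 0.79 ± 0.28 in the MOD group and -0.06 ± 0.79 in the SA-H group (SD, n = 3 each), a difference of -0.85 (standard error 0.42, 95% confidence interval -1.83 to 0.13; limma, adjusted p = 0.260). Without SA-H array 4 the difference was -0.39. Within the first and second scan days it was -0.56 and -1.50. Of the printed windows, the one with the full palindrome is that of this gene.

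Dusp1, a phosphatase that switches off p38 and JNK kinases, likewise lay lower on the SA-H arrays. It measured 0.05, 0.60 and 0.13 across the MOD group against -0.36, -0.10 and -0.43 across the SA-H group. Every SA-H array was below every MOD array, with MOD array 2 the highest. The means were 0.26 ± 0.30 and -0.30 ± 0.18 (SD, n = 3 each), and the difference of -0.56 (standard error 0.25, 95% confidence interval -1.16 to 0.04) did not pass the test (limma, adjusted p = 0.235). The sign held in all 16 alternative settings, with values between -1.03 and -0.39, and within the first and second scan days the difference was -0.52 and -0.97. Of 24 immediate early genes and related phosphatases, 16 were tested, 0 were higher and 1 was lower, and their median was 0.17. The lower one was Dusp8, a phosphatase of the same family (difference -0.77, standard error 0.25; limma, adjusted p = 0.141). Fos, Fosb, Junb and Ier2, which rise with Dusp1 after many stimuli, were not tested.

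Tsc22d3 encodes GILZ, a mediator of the anti-inflammatory action of glucocorticoids. Its level was 2.84, 2.81 and 3.35 across the MOD group against 2.77, 3.46 and 3.43 across the SA-H group. The groups overlapped, since SA-H array 4 was the lowest of all and MOD array 3 was close to the other SA-H arrays. The difference was 0.22 (standard error 0.30, 95% confidence interval -0.48 to 0.91; limma, adjusted p = 0.666), and it was 0.44 without SA-H array 4. Within the scan days it was 0.33 and -0.04. The summed level of 10 T cell markers, in units of the 75th percentile, was 18.0 to 33.9 in the MOD group and 17.9 to 24.5 in the SA-H group, with 0 markers higher and 0 lower by the unadjusted limit in limma, and its part in the Tsc22d3 values was not tested.

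Fkbp5 encodes a chaperone partner that lowers the affinity of the glucocorticoid receptor and is widely used as a readout of receptor activity. It measured 1.50, 1.55 and 1.57 across the MOD group, the tightest of the set, against 2.37, 1.73 and 1.44 across the SA-H group. SA-H array 6 was the lowest of all 6 arrays and SA-H array 4 the highest, so the groups overlapped. The difference was 0.30 (standard error 0.29, 95% confidence interval -0.38 to 0.99; limma, adjusted p = 0.537), and without SA-H array 4 it was 0.04. Within the scan days the difference was -0.10 and 0.82. The interval leaves room for a change of almost 1 on the log2 scale in the upward direction, so that a rise of Fkbp5 was not detectable with these arrays rather than shown to be absent.

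The receptor side of the pathway was measured on the same arrays. Of 17 genes for the receptors, their chaperones and coregulators and the enzymes that activate or inactivate corticosterone, 14 were tested, 1 was higher and 2 were lower, with a median of -0.14. Nr3c1, the glucocorticoid receptor gene, had levels of 3.67, 3.27 and 3.78 in the MOD group and 2.53, 3.22 and 3.40 in the SA-H group. These overlapped, and its difference of -0.52 did not pass (standard error 0.31; limma, adjusted p = 0.334). Hsd11b1, which regenerates active corticosterone, differed by -0.36 (limma, adjusted p = 0.400), with every SA-H array below every MOD array. Without SA-H array 4 these differences were -0.26 for Nr3c1 and -0.18 for Hsd11b1. With normexp Nr3c1 differed by -0.81 and passed the unadjusted limit. The mean of its kept probes differed by -0.82 without passing, and in the deposited value table the sign was opposite (0.32). Abcb1a, an efflux pump that carries steroids out of cells, was higher by 1.00 (standard error 0.21; limma, adjusted p = 0.0884). Its levels of -1.43, -1.58 and -1.35 in the MOD group and -0.50, -0.45 and -0.40 in the SA-H group were tight within each group. Ptges3, the receptor co-chaperone p23, was lower by the brightest probe (difference -0.92, standard error 0.25; limma, adjusted p = 0.108), but its probes disagreed and the mean of its kept probes differed by -0.11. The coactivator Ncoa2 was lower as well (difference -1.17, standard error 0.37; limma, adjusted p = 0.142). Nr3c2, Hsd11b2 and Abcb1b were not tested.

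Klf9, a zinc finger factor of the circadian and glucocorticoid response, had levels of 1.10, 0.80 and 1.41 across the MOD group against 0.45, 0.47 and 0.86 across the SA-H group. The groups overlapped by a small margin, SA-H array 6 lying above MOD array 2. The difference was -0.51 (standard error 0.26, 95% confidence interval -1.13 to 0.11; limma, adjusted p = 0.280), and its sign held in all 16 alternative settings. Within the scan days it was -0.39 and -0.35.

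Zbtb16, or PLZF, is a factor that glucocorticoids induce and that directs the development of natural killer T cells. Its level was low, at -2.31, -1.82 and -1.68 across the MOD group against -1.11, -2.06 and -1.73 across the SA-H group. The groups overlapped, with SA-H array 4 the highest. The difference was 0.31 (standard error 0.33, 95% confidence interval -0.46 to 1.07; limma, adjusted p = 0.579) and was 0.04 without SA-H array 4. Of 10 markers of natural killer and natural killer T cells, 8 were tested, 2 were higher and 0 were lower, where 10.8% of all features were higher. The 2 were Gzma (0.86) and Prf1 (0.79), both genes of the killing machinery (limma, adjusted p = 0.151 and 0.172). Klrb1c and Klrk1 were not tested. The summed level of these 8 markers, in units of the 75th percentile, was 21.2 to 26.8 across the MOD group against 31.5 to 50.4 across the SA-H group. Gzma made up the largest part of this sum on every array, and the groups were apart for only 3 of the 8 markers. The sum was highest on SA-H array 6 and not on SA-H array 4, where Zbtb16 was highest, and the part of these cells in the Zbtb16 values was not tested. In whole spleen, fewer cells of a type and less RNA per cell cannot be told apart.

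Relatives of the stress genes were tested as a comparison. Of 19 relatives, 16 were tested, 1 was higher and 2 were lower, with a median of -0.21. Zbtb7a, a repressor of the same family as Zbtb16, was higher by 1.10 (standard error 0.30; limma, adjusted p = 0.109). Klf10 and Klf13, factors of the same family as Klf9, were lower by the test, with differences of -0.75 and -1.16 (limma, adjusted p = 0.145 and 0.163). Without SA-H array 4 the difference of Klf13 was -0.70. In the deposited value table Klf13 differed by -0.00463 and Zbtb7a had the opposite sign (-0.24), and the mean of the kept probes of Zbtb7a differed by 0.12.

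Mt1 and Mt2 encode the metallothioneins, small proteins that bind zinc and copper. Mt1 measured 3.78, 3.57 and 3.83 across the MOD group against 4.13, 2.64 and 3.53 across the SA-H group. Mt2 measured 5.49, 5.00 and 4.93 across the MOD group against 6.51, 4.23 and 5.35 across the SA-H group. For both genes SA-H array 4 was the highest and SA-H array 5 the lowest of all 6 arrays, so that the SA-H group enclosed the MOD group, and over the 6 arrays the levels of the pair had a Pearson r of 0.843. The SD of the SA-H group was 0.75 for Mt1 and 1.14 for Mt2, against 0.14 and 0.31 in the MOD group. The difference was -0.29 for Mt1 (95% confidence interval -1.20 to 0.62; limma, adjusted p = 0.660) and 0.22 for Mt2 (95% confidence interval -1.07 to 1.51; limma, adjusted p = 0.827). Neither sign was stable: Mt1 was 0.10 without SA-H array 5, Mt2 was -0.35 without SA-H array 4, and within the scan days the differences were -0.27 and 0.56 for Mt1 and 0.14 and 1.50 for Mt2.

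Other measures moved with the metallothioneins on SA-H array 4. The summed level of 8 neutrophil markers was 1032 on that array and 306 to 495 on the other 5 arrays. Retnlg was not tested and Ly6g matched no probe. The sum over 11 red cell precursor markers was 1486 there and 533 to 870 elsewhere, with Ahsp matched to no probe. The sum over 24 ribosomal protein genes was 4058 there and 1435 to 2197 elsewhere. The part of these cells and of RNA quality in the metallothionein values was not tested. Fat markers differed in another way, with 6 of 7 tested markers lower in the SA-H group by the unadjusted limit and 0 higher. Of all features 12.5% were lower by that limit. The summed levels were 5.52 to 6.61 against 10.5 to 14.9 in the MOD group. Only 3 of the 7 rose well above background on every array. Of these, Pparg (-0.79) and Fabp4 (-0.80) were lower by the limit, and Retn (-0.21) did not pass. The others (Cidec, Car3, Adipoq and Cfd) did so on 4 or 5 arrays. Each was higher on every MOD array than on any SA-H array, so by its levels the filter kept it through the MOD group. Such an entry favours a lower result, so these markers cannot be set against the 12.5%. Lep and Plin1 did not pass the filter, and the part of fat in the differences of the stress genes was not tested either.

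Among 16 genes of metal sensing and zinc transport, 14 were tested, 0 were higher and 2 were lower, with a median of 0.08. Mtf1, the zinc sensor known to bind metal response elements, was lower by the test. Its levels were 0.27, 0.08 and 0.54 in the MOD group and -0.49, -0.21 and -0.45 in the SA-H group. Its difference was -0.69 (standard error 0.24; limma, adjusted p = 0.159), and the groups did not overlap. Its probes disagreed, however, and the mean of its kept probes differed by -0.072. The limit was also missed with normexp (-0.43), in the deposited value table (-0.29), without a filter on dim probes, and without MOD array 1, MOD array 3 or SA-H array 6. The zinc transporter Slc30a7 was also lower (difference -1.13; limma, adjusted p = 0.198), but was well above background on 5 arrays only and had the opposite sign in the deposited value table (0.96). Slc30a1, the zinc exporter that Mtf1 controls, differed by 0.10 (limma, adjusted p = 0.877) and overlapped. Of 11 genes of interleukin 6 signalling and the acute phase, 6 were tested, 1 was higher, 0 were lower and the median was 0.54. Il6st, the signal-transducing receptor chain, was that gene, with levels of 1.23, 0.95 and 1.29 in the MOD group and 1.56, 2.18 and 2.48 in the SA-H group (difference 0.92, standard error 0.30; limma, adjusted p = 0.145).

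Other classic targets of the receptor were mixed. Of 28 further genes that glucocorticoids are known to raise, 22 were tested, 1 was higher and 2 were lower, with a median of -0.06. Tat, an enzyme of tyrosine breakdown best known from liver, was higher by 1.93 (standard error 0.64; limma, adjusted p = 0.152), from -0.86, 0.43 and -1.67 across the MOD group to 2.32, 0.79 and 0.60 across the SA-H group. In the deposited value table it differed by 0.038. Btg2, a brake on proliferation, and Cxcr4, a chemokine receptor, were lower by the test, with differences of -0.92 and -1.11 (limma, adjusted p = 0.154 and 0.176), and without SA-H array 6 the difference of Cxcr4 was -0.74. The clock gene Per1 differed by 0.40 (limma, adjusted p = 0.429) and the inhibitor of NF-kB Nfkbia by 0.54 (limma, adjusted p = 0.285). Of 21 inflammatory genes that glucocorticoids hold down, 20 were on the array and only 9 were tested, with 1 higher, 0 lower and a median of 0.28. That gene was Il1b, which measured 0.96, 1.15 and 1.00 in the MOD group and 2.13, 2.52 and 2.23 in the SA-H group (difference 1.26, standard error 0.23; limma, adjusted p = 0.0795). Il6, Tnf and 9 others were not tested, and Il12b matched no probe.

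Over the 8 lists together, 112 of 156 genes were tested, 6 were higher and 9 were lower. They made up 13.4% of the tested genes, where 23.3% of all features passed the same limit, and 8.04% were called changed, where 12.8% of all features were. The median over the 112 genes was -0.03. When each array was left out in turn, 5 of the 15 genes that had passed (Abcb1a, Bnip3, Il1b, Ptges3 and Zbtb7a) passed every time, and the other 10 lost the unadjusted p of 0.05 in at least 1 of the 6 fits. Those 5 did not pass in all other settings: Abcb1a, Il1b and Zbtb7a missed the limit with scaling by the median, Ptges3 and Zbtb7a with the mean of the kept probes, and Bnip3, Ptges3 and Zbtb7a in the deposited value table. Of the 15 genes, 10 missed the limit or turned sign in that table. Without MOD array 1, 8 were lost (Btg2, Cxcr4, Dusp8, Klf10, Klf13, Mtf1, Slc30a7 and Tat), and without MOD array 3, 6 were lost (Btg2, Klf13, Mtf1, Ncoa2, Slc30a7 and Tat). Without MOD array 2, Cxcr4, Il6st and Slc30a7 were lost, without SA-H array 4 Tat, without SA-H array 5 Cxcr4 and Dusp8, and without SA-H array 6 Cxcr4, Il6st and Mtf1. The difference of Tat was 1.39 to 2.50 over these fits and that of Slc30a7 was -1.40 to -0.60.

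**Figure D2:**
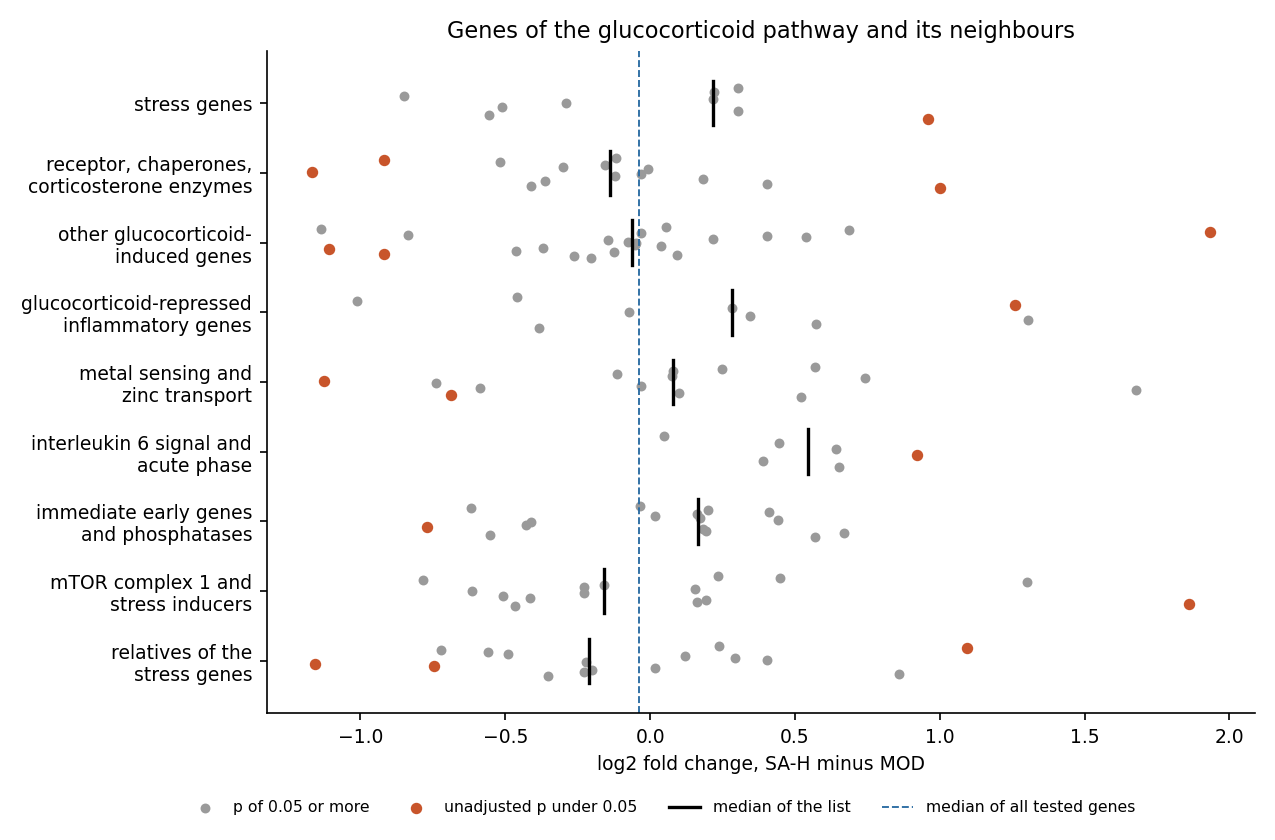
Log2 fold change, SA-H minus MOD, of every tested gene in each list (1 point per gene, orange where the unadjusted p in limma was under 0.05), with the median of the list as a black bar and the median over all tested genes as a dashed line. Points lie on both sides of 0 in every list but that of interleukin 6 signalling, where the 6 tested genes lie above 0 in this setting and 1 of them passed.

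The ratio of one gene to another within an array does not depend on the factor by which the array was scaled. These ratios were chosen for display after the values had been seen and carry no test. Of the 36 pairs of stress genes, 11 had ratios that did not overlap between the groups. The same share over pairs of all features was not computed, so this count cannot be read as a trait of the set. With each stress gene in turn as the reference, 1.2% to 34.5% of the other features were higher without overlap and 1.41% to 54.3% were lower. Relative to Ddit4 on the same array, 5 of the 8 others were lower in the SA-H group on every array, by a log2 ratio of -1.81 for Sgk1, -1.52 for Dusp1, -1.47 for Klf9, -1.25 for Mt1 and -0.74 for Tsc22d3. This share is near the background, since 54.3% of the 14473 other features were likewise lower relative to Ddit4. Relative to Sgk1, 3 of 8 were higher (Fkbp5, Tsc22d3 and Ddit4), where 34.5% of the other features were. The ratio of Mt1 to Mt2 changed by -0.51 and overlapped between the groups.

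**Figure D3:**
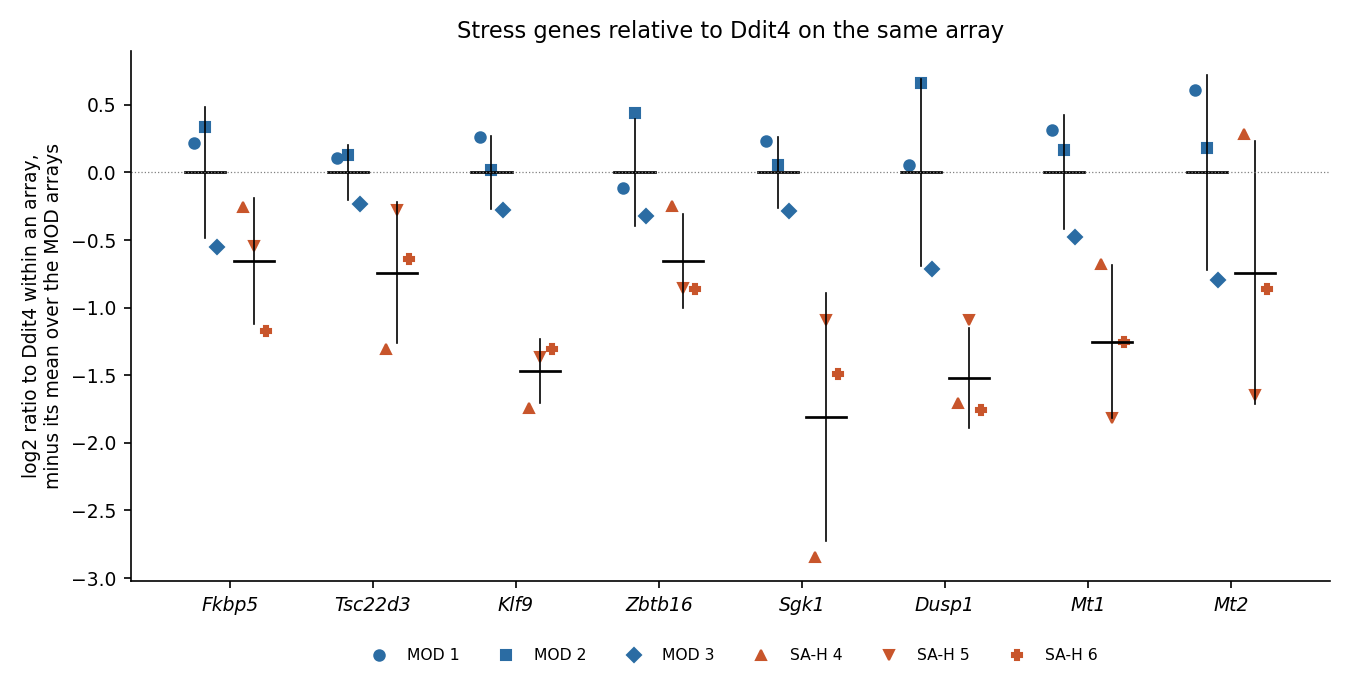
Log2 ratio of each stress gene to Ddit4 on the same array, minus the mean of that ratio over the MOD arrays; symbols are single arrays and bars are the group mean with its SD (n = 3 arrays). Sgk1, Dusp1, Klf9, Mt1 and Tsc22d3 are apart between the groups, and Fkbp5, Zbtb16 and Mt2 overlap.

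The genes most like each member over the 6 arrays, by Pearson correlation of log2 levels among 9100 other genes well above background on all 6, were different for each member. They were Als2cl (r = 0.997) for Ddit4, Mzb1 (0.997) and Il1r1 (0.997) for Sgk1, and Emc2 (0.966) and Abca17 (0.965) for Dusp1. For Fkbp5 they were Ccdc107 (r = 0.983) and Cers5 (0.981), for Tsc22d3 Akna (0.989) and Cyp4f16 (0.989), for Klf9 Trip4 (0.997) and Fem1a (0.997), and for Zbtb16 Pgbd1 (0.985) and Tfcp2 (0.984). Mt1 was most like Mtch1 (r = 0.997) and Sgpp1 (0.996), and Mt2 most like Dohh (0.998) and Nudt9 (0.998). With 6 arrays such values are common, and the number of genes above 0.95 ranged from 6 for Dusp1 to 350 for Sgk1.

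Fits that allow for the scan day or the slide moved Sgk1 and Dusp1 past the unadjusted limit, which Ddit4 had met in the main setting too. With the scan day as a block, the differences of Ddit4 (1.12), Dusp1 (-0.71) and Sgk1 (-0.96) passed it, 3 of 9 where 30.7% of all features passed, and Ddit4 met the call, where 18.5% of all features met it. With a random block for the slide scan these 3 genes passed too, at 1.07, -0.66 and -0.96, where 26.8% of all features passed, and Ddit4 again met the call (15.7% of all features). When arrays were scaled by their median instead of the 75th percentile, the median of all features was -0.36, and Sgk1 met the call at -1.17, where 21.8% of all features met it. The groups of Dusp1 alone then did not overlap, where those of 21.2% of all features did not.

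**Figure D4:**
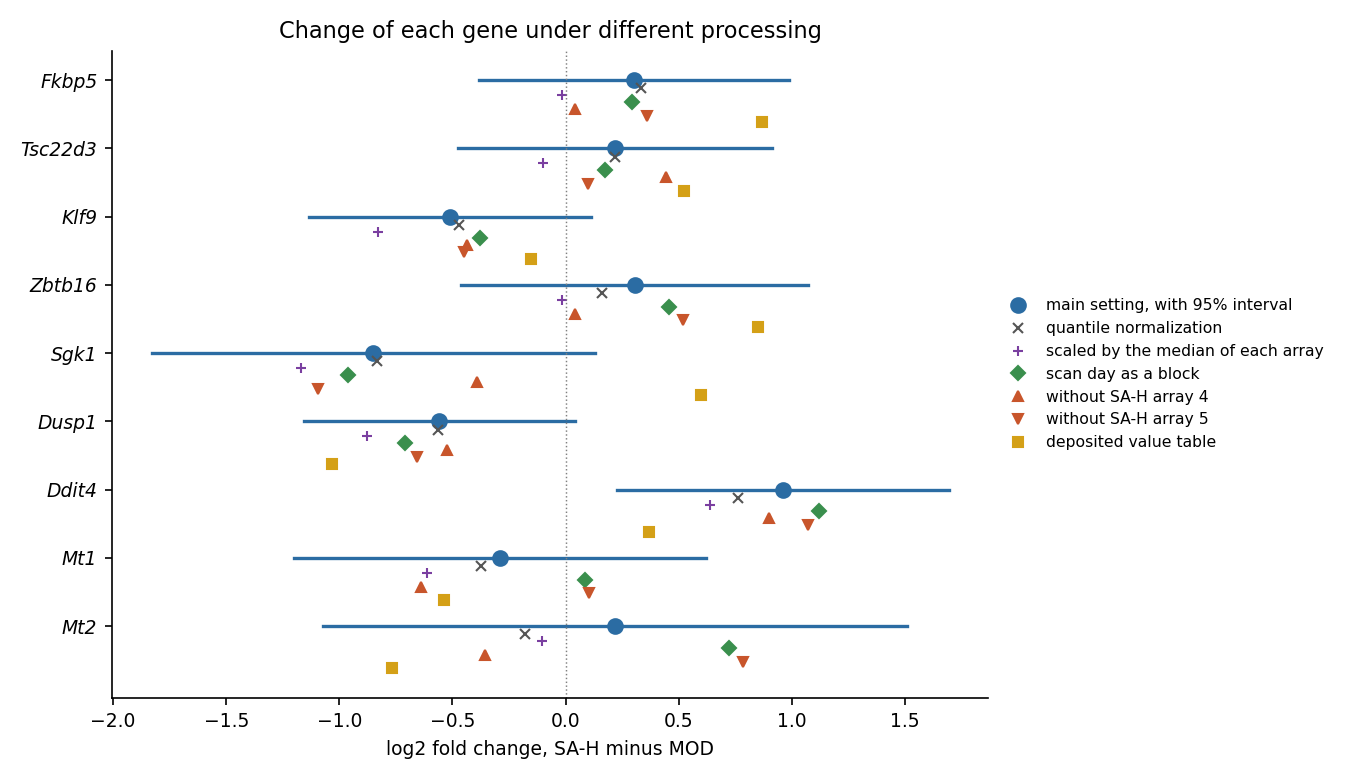
Log2 fold change of each stress gene, SA-H minus MOD, in the main setting (circle with 95% confidence interval, limma) and in 6 of the alternative settings (other symbols). Ddit4, Dusp1 and Klf9 keep their sign in every setting shown, and Sgk1 changes sign in the deposited value table.

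The deposited value table, whose columns carry the names of the same 6 samples, gave another picture of the set. There, 6 of 9 stress genes passed an unadjusted p of 0.05, where 32.7% of all features did, and the groups of 6 did not overlap, where those of 38% of all features did not. Fkbp5 (0.87), Zbtb16 (0.85) and Sgk1 (0.60) were higher, and Dusp1 (-1.03), Mt2 (-0.77) and Mt1 (-0.54) were lower. Dusp1 (limma, adjusted p = 0.0195) and Zbtb16 (limma, adjusted p = 0.0436) passed an adjusted p of 0.05 there, where 12.3% of all features did. Dusp1 alone met the call, where 9.02% of all features did. Ddit4 differed by 0.37 and did not pass (limma, adjusted p = 0.388), so that Dusp1 was lower in both sets of values while Sgk1 had opposite signs. The ranks of genes within an array were alike in the table and the scanner data (Spearman rho 0.808 to 0.900). The deviations of an array from the gene means were not, with r between -0.28 and 0.46 for the 6 arrays, and how the table was made is not given in the sources used here. Whether a column of the table and the scanner file of the same sample come from the same RNA is therefore in doubt, and with it every comparison between these 2 sets of values. The scanner values were therefore kept as the main result.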

How the data were processed

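Spleen RNA of 6 samples was labelled with Cy3 and hybridised to 1-colour Agilent mouse arrays, 3 of the MOD group and 3 of the SA-H group, grouped by the sample titles. Spot intensity was deposited by the authors as read by Agilent Feature Extraction 11.0.1.1, which subtracts background, evens out gradients and sets low values to a small positive number, without normalization between arrays. The deposited table of log2 values was made by the authors in an undescribed way, with the same median (5.34) in each column, and its log base was read from its range.

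Outlier spots (172 to 634 per array) were left out, spots of a probe were averaged, and each array was scaled to its 75th percentile on the log2 scale. Probes were named through RefSeq accessions (27234 of 39429). A probe was kept if it had a value on all 6 arrays and rose well above background throughout at least 1 group, and the brightest kept probe stood for its gene, which left 14474 features (11005 named). The comparison used limma 3.58.1 (R 4.3.3) with Benjamini-Hochberg adjustment over all features. The methods name an analysis of variance for the study and no test, filter or normalization for the arrays; it was run as an alternative. Other alternatives were scaling by the median, quantile normalization, normexp background correction (offset 50), the deposited table, other filters, the mean of a gene's probes, the scan day as a block, the slide scan as a random block, and leaving out each array. Normexp was run on the median spot signal, because the mean spot signal that had been planned was not in the files. The fit was tested on simulated data.

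The members, the gene lists and the tests were chosen with earlier results of these data known. The genes named are all 9 members, up to 4 genes with the smallest p of each list, and Nr3c1, Hsd11b1, Mtf1, Slc30a1 and Per1 for their role, with up to 2 markers per cell type and up to 2 genes most like each member. Precision is limited by having 3 arrays per group. A gene that this rule would name is not reported here.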

Additional observations from a re-analysis of the deposited data

How the results depend on the processing

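No paired analysis was possible because the MOD arrays are numbered 1 to 3 and the SA-H arrays 4 to 6, and they share no replicate number. Arrays of both groups did share scan days and a slide scan, and the fits with these as blocks are given here and in the report.

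The number of stress genes called changed, 0 in the main setting, was 1 with scaling by the median (Sgk1), 1 in the deposited value table (Dusp1), 1 with the scan day as a block, 1 with a random block for the slide scan (Ddit4 in both), and 0 to 2 when an array was left out. The number at an unadjusted p under 0.05, 1 in the main setting, was 0 with quantile normalization, 1 with scaling by the median (Sgk1 in place of Ddit4), 1 with normexp (Klf9 in place of Ddit4), 6 in the value table, 3 with the day block and 3 with the slide block (Ddit4, Dusp1 and Sgk1 in both), 2 with the analysis of variance, and 0 to 2 when an array was left out. The number not overlapping, 3 in the main setting, was 1 with scaling by the median and 6 in the value table. Of the 112 tested genes of the 8 lists, 15 passed the unadjusted limit in the main setting, where 23.3% of all features passed. The number was 38 in the value table and 30 with the day block, where 32.7% and 30.7% of all features passed. When an array was left out it was 7 to 22. The 7 came without MOD array 1, where 1729 of all 14474 features passed, against 3377 in the main setting. In the day block SA-H array 5, alone on its day, adds nothing to the comparison.

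Scaling by the median put the median of all features at -0.36, against -0.04 in the main setting, and the following signs turned with it: Fkbp5 -0.017, Tsc22d3 -0.10, Zbtb16 -0.016, Mt2 -0.10 and Slc30a1 -0.22. Mt2 was also -0.18 with quantile normalization, and it ranged from -0.35 (without SA-H array 4) to 0.78 (without SA-H array 5) when an array was left out. Mt1 was 0.085 with the day block and ranged from -0.64 (without SA-H array 4) to 0.10 (without SA-H array 5). Slc30a1 was -0.12 with the slide block and ranged from -0.13 (without SA-H array 6) to 0.42 (without SA-H array 4). In the value table the opposite sign was found for Sgk1 (0.60), Mt2 (-0.77), Nr3c1 (0.32), Ccl3 (-1.20), Slc30a7 (0.96), Slc30a4 (0.16), Slc30a1 (-0.45), Hp (-0.54), Atf3 (-0.17), Dusp10 (0.47), Myc (0.33), Sesn3 (0.39) and Zbtb7a (-0.24). The cause was not tested. Over all features, the number past an adjusted p of 0.05, 0 in the main setting, was 1094 with scaling by the median, 4 with quantile normalization, 210 with normexp, 1779 in the value table, 1075 with the day block, 1 with the strict filter on dim probes, and 0 to 22 when an array was left out.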
